A study of Canis lupus familiaris with 2 samples.

Results

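Retinal cells that carried messenger RNA of neurofilaments and other ganglion cell genes were picked out of the neuroretina of 2 dogs by a rule on counts. A cell was taken when at least 3 of 8 gate genes (*NEFL*, *NEFM*, *STMN2*, *SNCG*, *RBPMS*, *SLC17A6*, *POU4F1*, *THY1*) had a unique molecular identifier (UMI, a tag that counts an mRNA molecule once) and none of 7 genes of other retinal neurons did (*GAD1*, *GAD2*, *SLC6A9*, *LHX1*, *ONECUT1*, *TRPM1*, *GRIK1*, called the veto here). Of 13282 cells with at least 200 detected genes, 51 met the rule, and they are called gated cells below. Dog N350 gave 48 of 8895 cells (0.540%, exact binomial 95% interval 0.398 to 0.715), and dog N354 gave 3 of 4387 (0.0684%, 0.0141 to 0.200). Because the cells were chosen by their UMIs of the 8 gate genes and the 7 vetoed genes, the values of those genes are a description and support nothing.

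Both animals were male dogs aged 40 weeks with a genotype labelled as normal or wild-type, and no treatment or second genotype was compared. Punches of neuroretina were dissociated with trypsin and an enzyme kit, and libraries of 3' ends were made in droplets. The counts held 23980337 UMIs in N350, with a median of 1298 per cell, and 9685044 UMIs in N354, with a median of 1204. Cells were counted as replicates nowhere, since those of a dog share an animal and a library, so that every comparison rests on values of single dogs and has no test. Of the cell barcodes, 6 occurred in both libraries, none of them in a gated cell. The libraries list different genes: *POU4F1*, and *RBPMS2*, *ISL2* and *TUBB3* among the genes used below, are not listed in N354, where the gate had 7 genes.

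Retinal ganglion cells are the output neurons of the eye. They collect the signals of bipolar and amacrine cells and send them as spikes along the optic nerve, and their long axons are filled with neurofilament. They release glutamate, loaded into vesicles by the transporter that *SLC17A6* encodes, and their identity is set by transcription factors of the POU4F and ISL families. Amacrine cells, inhibitory interneurons that in part lie among ganglion cells in the same layer, share many neuronal genes with them, and mural cells of vessels can hold *RBPMS*, which is also known from ganglion cells.

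The label of ganglion-like neurons held for few of the gated cells. Identity was read from 17 ganglion cell genes that the rule did not use (*CARTPT*, *POU4F2*, *POU4F3*, *ISL1*, *ISL2*, *RBPMS2*, *NEFH*, *INA*, *PRPH*, *ELAVL4*, *GAP43*, *NRN1*, *TUBB3*, *UCHL1*, *L1CAM*, *CHRNA6*, *EBF1*), called the held-out genes. In N350 they summed to 60.5 UMIs per 10000 UMIs of the gated cells (exact Poisson 95% interval 58.2 to 62.7) and to 9.06 in all other cells (8.93 to 9.18), a ratio of 6.68 (6.42 to 6.95). Intervals here cover counting error only, not the spread between animals. In N354, with 14 of these genes listed, 10 UMIs in the 3 cells gave a ratio of 1.44 (0.689 to 2.65), an interval that included 1. There, 1 cell of 21299 UMIs, 92.1% of them mitochondrial, dominated the sum, with a held-out level of 2.35. The other 2 stood at 30.9 (10.0 to 72.2), and as a mean over cells the ratio was higher, as given below. A single cell of 71529 UMIs supplied 1339 of the 2793 held-out UMIs of N350, and without the 3 cells that had 7 gate genes the ratio was 2.19 (2.02 to 2.37).

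Amacrine cells were the comparison nearest in UMIs per cell. Amacrine-gated cells were those outside the gate with at least 2 of 7 amacrine genes (*GAD1*, *GAD2*, *SLC32A1*, *SLC6A9*, *TFAP2A*, *TFAP2B* and *C1QL2*) and no gene of horizontal or bipolar cells in the veto, 341 cells in N350 with a median of 4719 UMIs, against 5108 in the gated cells. Their held-out level was 31.0 (30.2 to 31.8), so that the gated cells stood 1.95-fold higher (1.86 to 2.04) in the sums but 1.30-fold higher as a mean over cells. The higher sum rested on the 3 cells with 7 gate genes: the 45 gated cells with 3 to 6 gate genes stood at 19.8 (18.3 to 21.5), below amacrine-gated cells (ratio 0.640, 0.588 to 0.695). After thinning each cell to 1000 UMIs, 75.7% of the gated cells (45 cells deep enough) kept a held-out UMI, against 79.2% of amacrine-gated cells (319 cells) and 26.9% of all other cells (5703 cells). Without thinning these shares were 93.8%, 93.0% and 34.3%. Against all other cells of N350, 16 of the 17 held-out genes had a ratio whose interval lay above 1 and 1, *ISL1*, lay below. How many of all genes had such an interval was not counted, so these counts describe the list only. Some of the 16 rested on 1 cell: *POU4F3* had 2 UMIs, both in 1 cell, and 1 cell held 9 of 10 UMIs of *ISL2* and 9 of 12 of *PRPH*. Without the 3 cells of 7 gate genes the ratios of *CARTPT* and *PRPH* (1 UMI) turned to 0.0995 and 0.651. *POU4F3* then had 0 UMIs, which does not place its ratio above or below 1. Against amacrine-gated cells, 9 lay above 1, 7 included 1 and 1, *CARTPT*, lay below, and without those 3 cells *INA*, *PRPH* and *UCHL1* turned to 0.711, 0.278 and 0.805. In N354, 1 of 14 lay above 1 against all other cells and none against its 41 amacrine-gated cells, where the summed ratio was 0.254 (0.121 to 0.471).

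The 48 gated cells of N350 were not of 1 kind. After their values had been seen, they were divided by the number of gate genes and by markers of amacrine cells and vessels, and since the division used those genes, it is described without a test. It gave 5 cells with 6 or 7 gate genes, 22 cells with at least 2 amacrine genes, 3 cells with at least 3 vessel genes (vessel-marker cells), and 18 others. The 5 cells held 36.2% of the UMIs of the gated cells, the 22 held 34.0%, the 3 vessel-marker cells 18.8% and the 18 others 11.0%. Summed levels therefore follow a few deep cells.

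**Figure D1:**
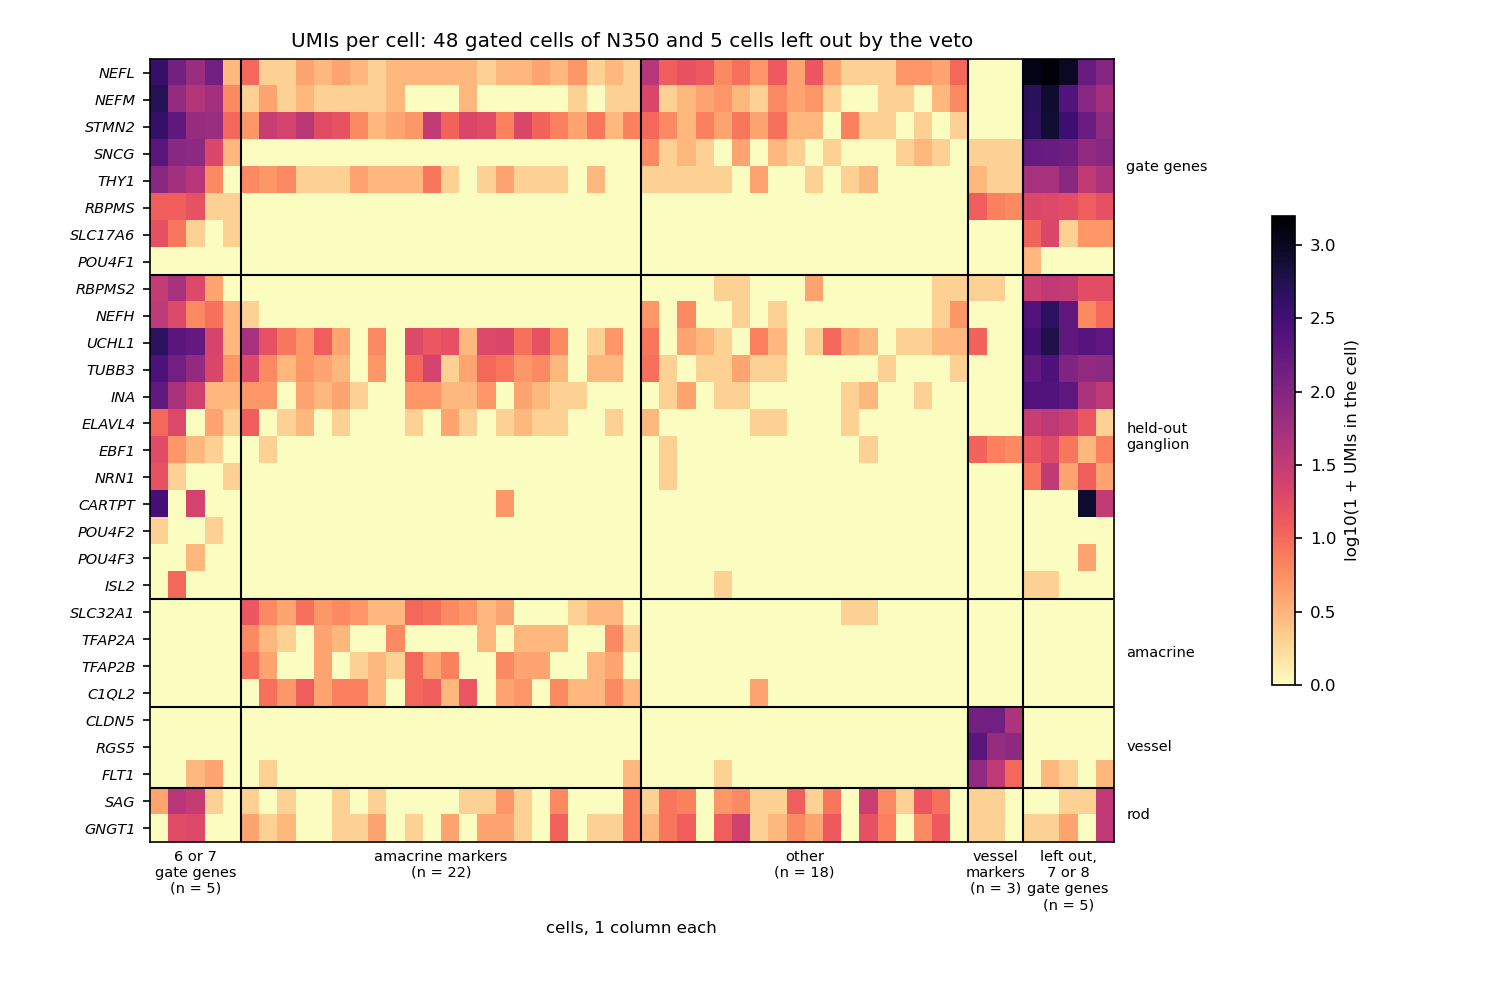
Each column is 1 cell of N350 and each row 1 gene, and the colour is log10(1 + UMIs) of the gene in the cell, for the 48 gated cells in 4 kinds and, at the right, the 5 cells with 7 or 8 gate genes that the veto left out. SLC17A6 lies only in columns with 6 or more gate genes and RBPMS2 mainly there, SLC32A1 and C1QL2 lie mainly in those with amacrine markers, and CLDN5 and RGS5 in the 3 with vessel markers.

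The cells with most gate genes had the fullest set of ganglion cell genes. The 3 cells with 7 gate genes held 71529, 48680 and 27807 UMIs, and their held-out genes reached 187, 105 and 116 UMIs per 10000. *RBPMS2*, an RNA-binding protein and paralogue of *RBPMS*, had 29, 52 and 18 UMIs in them. *NEFH*, the heavy neurofilament chain, had 34, 18 and 5 UMIs, and *UCHL1*, a deubiquitinating enzyme abundant in neurons, had 464, 204 and 172. Of the gate genes, by which these cells were chosen, *SLC17A6* had 15, 7 and 1 UMIs and *SNCG*, a synuclein, 202, 87 and 83. None of the 9 amacrine genes of the list had a UMI in these 3 cells, which allows up to 3 UMIs in their 148016. Rod genes stood at 1.12, 26.1 and 53.6 UMIs per 10000 in the 3 cells and Müller glia genes at 1.82, 15.8 and 29.5. The source of those UMIs was not tested. The remaining 2 of these 5 cells had lower held-out levels. A cell of 17700 UMIs with 20.5% of them mitochondrial had 3 UMIs of *RBPMS2* and a level of 33.3, beside 148 UMIs per 10000 of Müller glia genes. A cell of 1622 UMIs, 24.9% of them mitochondrial, had a level of 74.0 from 12 UMIs. It had 0 UMIs of *RBPMS2*, which at its depth does not show that the gene was absent.

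The veto removed more such cells than the gate kept. Of the 8 cells of N350 with 7 or 8 gate genes, 5 were left out, each through *ONECUT1*, a transcription factor known from horizontal cells and also from some ganglion cells, at 1 to 5 UMIs in cells of 31115 to 111578 UMIs, and 1 of them also through 3 UMIs of *GRIK1*. Their held-out levels ran from 88.7 to 317 UMIs per 10000, and their *RBPMS2* from 16 to 33 UMIs. The summed held-out level was 148 (144 to 152) in the 5 cells left out and 147 (141 to 153) in the 3 gated cells with 7 gate genes. These 5 count among all other cells in every comparison here. With the 5 taken in, the ratio of gated to all other cells in N350 rose from 6.68 to 14.1 (13.8 to 14.5). Of the 5, 2 fell into the horizontal-gated class, against which the gated cells stood 1.42-fold higher (1.36 to 1.49), and without the 3 cells of 7 gate genes they stood lower (ratio 0.466, 0.429 to 0.506). These 2 cells supplied 2991 of the 5933 held-out UMIs of that class, and without them the ratios became 2.55 (2.42 to 2.69) and 0.838 (0.767 to 0.914). In all, 90 cells of N350 and 22 of N354 with 3 or more gate genes were left out, most often through *GAD1*, a GABA-synthesizing enzyme, in 56 and 16 cells.

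**Figure D2:**
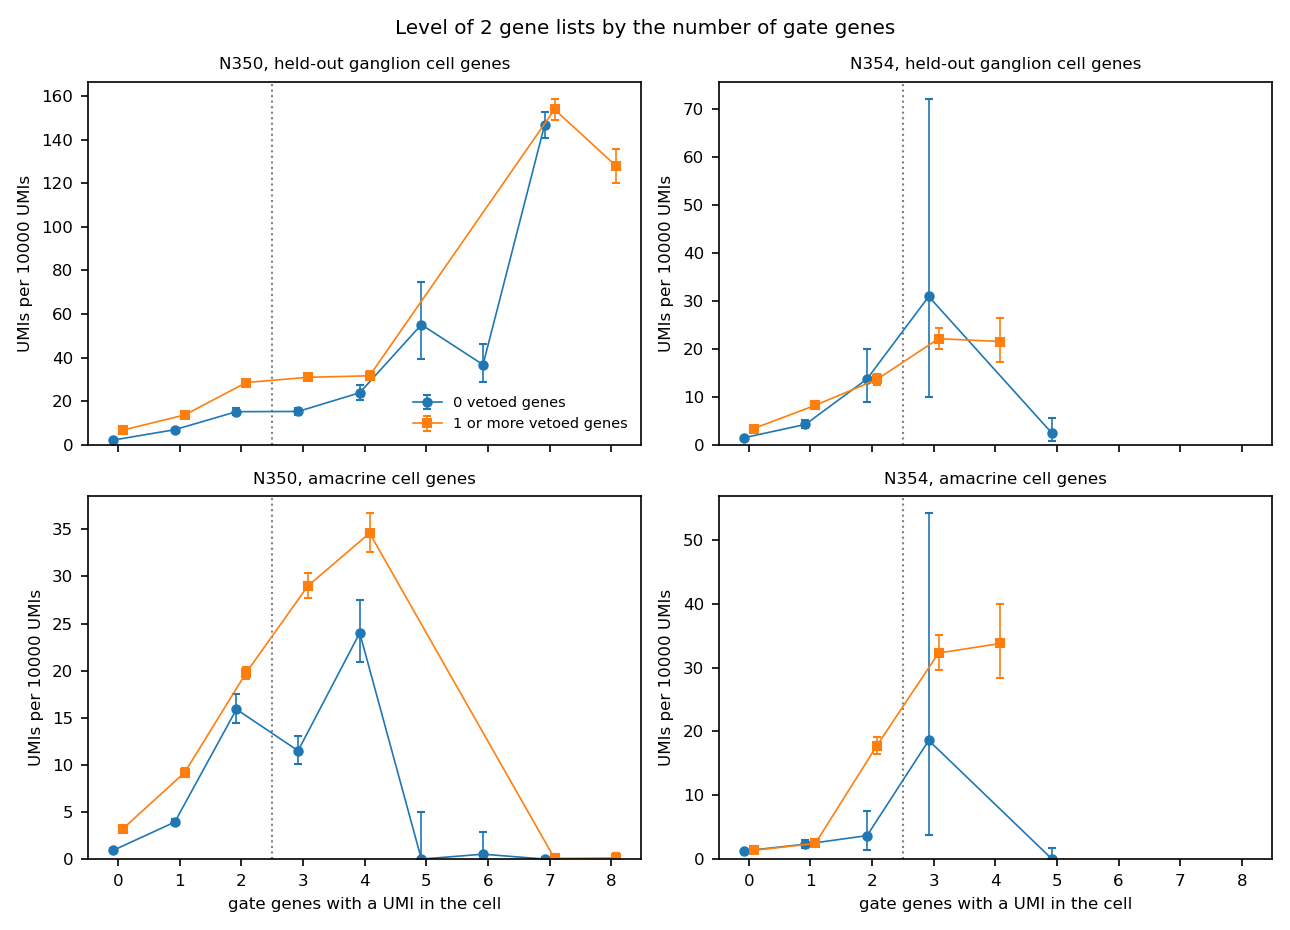
The horizontal axes give the number of gate genes with a UMI in the cell and the vertical axes the summed UMIs per 10000 UMIs of the held-out ganglion cell genes (upper row) or the amacrine genes (lower row), with exact Poisson 95% intervals, for cells with 0 (circles) and 1 or more (squares) vetoed genes; gated cells are the circles right of the dotted line. In N350 the ganglion cell level was 15.2 at 3 gate genes (23.9 without the 3 vessel-marker cells) and 147 at 7, and the amacrine level 24.0 at 4 and 0 at 7, while N354 had no cell above 5.

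The held-out level at the lower edge of the gate depended on the vessel-marker cells, all 3 of which had exactly 3 gate genes. In N350 the 24 gated cells with exactly 3 gate genes had a held-out level of 15.2 (13.5 to 17.0), and the 61 cells with exactly 2 and no vetoed gene had 15.1 (13.7 to 16.7). Without the 3 vessel-marker cells, which held 86816 of the 199880 UMIs at 3 gate genes, the level there was 23.9 (21.1 to 26.9). No such cells were taken out at 2 gate genes, so the level at 2 is not a like comparison. Levels were 23.8 in the 15 cells with 4 gate genes, 55.1 in the 4 cells with 5 and 36.7 in the 2 cells with 6. The amacrine genes gave 11.5 and 24.0 UMIs per 10000 at 3 and 4 gate genes (20.3 at 3 without the vessel-marker cells), 0 of 7443 UMIs at 5 and 0.518 at 6.

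The 8 cells with 7 or 8 gate genes held most of the library's counts of several genes, of which *RBPMS2* and *NEFH* were no part of the rule. They held 219 of the 276 *RBPMS2* UMIs of N350 (79.3%) and 950 of the 1266 *NEFH* UMIs (75.0%). Among genes of the rule, they held 96.8% of *SLC17A6*, 93.3% of *SNCG*, 79.6% of *NEFL*, 71.9% of *NEFM* and 51.8% of *RBPMS*. The POU4F factors were scarce. *POU4F1* had 3 UMIs in N350, 2 of them in the only cell with 8 gate genes, and none in a gated cell. *POU4F2* had 2 UMIs in the library, both in gated cells, and *POU4F3* had 5 UMIs, 3 in a cell left out and 2 in a gated cell, so that both *POU4F3* cells were among the 8. Of 8895 cells, 59 had a UMI of *RBPMS2*, 11 of them gated (22.9% of gated cells), and none of the 341 amacrine-gated cells did, which allows a share of up to 0.880% at a similar depth. Thinned to 1000 UMIs, the share with *RBPMS2* was 7.15% of the gated and 0.139% of all other cells.

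Genes outside the rule were ranked between these 8 cells and the 22 gated cells with amacrine markers, as a description. Of genes with at least 100 UMIs in the 8 cells and a UMI in each of them, *RBPMS2* (219 against 0 UMIs) and *TMEM163* (111 against 0), which codes for a zinc transporter, came first. The 0 of *TMEM163* holds for the 22 cells only: amacrine-gated cells had 165 UMIs of it in 56 cells, but 0 of *RBPMS2*. *NEFH* followed at 19.0 against 0.0636 UMIs per 10000, then *LGALS1*, a galectin, at 6.01 against 0.0636. *PCP4*, a regulator of calmodulin, stood at 71.5 against 3.12, *CHGB*, a granin of secretory granules, at 27.3 against 1.27, and *FGF12*, an intracellular partner of sodium channels, at 7.83 against 0.763. *INA*, the neurofilament subunit alpha-internexin, had 1000 UMIs against 40 and *DYNC1I1*, a dynein subunit, 136 against 5. On the other side, of genes with at least 50 UMIs in the 22 cells, *AVP*, the vasopressin precursor, had 0 UMIs in the 8 cells and 242 in the 22, *PTN*, a heparin-binding growth factor, 2 and 192, and *TRH*, the precursor of thyrotropin-releasing hormone, 1 and 80. *SLC32A1*, the vesicular transporter of GABA and glycine, *TFAP2B* and *C1QL2* also had 0 UMIs in the 8 cells, but the 22 were chosen in part by these genes.

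The 8 cells also differed among themselves. Numbered by their UMIs, cells 1, 2 and 3, all left out by the veto, had 460, 183 and 236 UMIs of *NEFH* and 34, 86 and 75 of *SCN4B*, an accessory subunit of sodium channels, while the other 5 had between 5 and 34 of *NEFH* and at most 1 of *SCN4B*. *PCP4* was at 76.5, 141 and 139 UMIs per 10000 in cells 1 to 3, at 40.1 and 9.86 in cells 4 and 5, and between 0.500 and 2.52 in cells 6 to 8. *CARTPT*, a neuropeptide precursor, had 306 UMIs in cell 4, 862 in cell 6, 30 in cell 7 and 22 in cell 8, and 0 in cells 1, 2, 3 and 5. *CALB2*, a calcium-binding protein, had 0 UMIs in cells 1 to 4 and 6, 9, 15 and 10 in cells 5 to 8. *EOMES*, a transcription factor of some ganglion cells, had 7 UMIs in cell 2 and *TBR1* 2 in cell 1, and none in the other cells of the 8. *SST*, the somatostatin gene, had 97 of its 98 UMIs in the library in 1 of the 8 cells, and 1 of the 8 held 144 of the 604 UMIs of *NPY*. *OPN4*, the photopigment of light-sensitive ganglion cells, *SPP1* and *FOXP2* had none in all 8. *SAG*, the arrestin of rods, had 36, 31 and 29 UMIs in cells 5, 7 and 8 and at most 3 in the others, and its part in those cells' values was not tested.

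**Figure D3:**
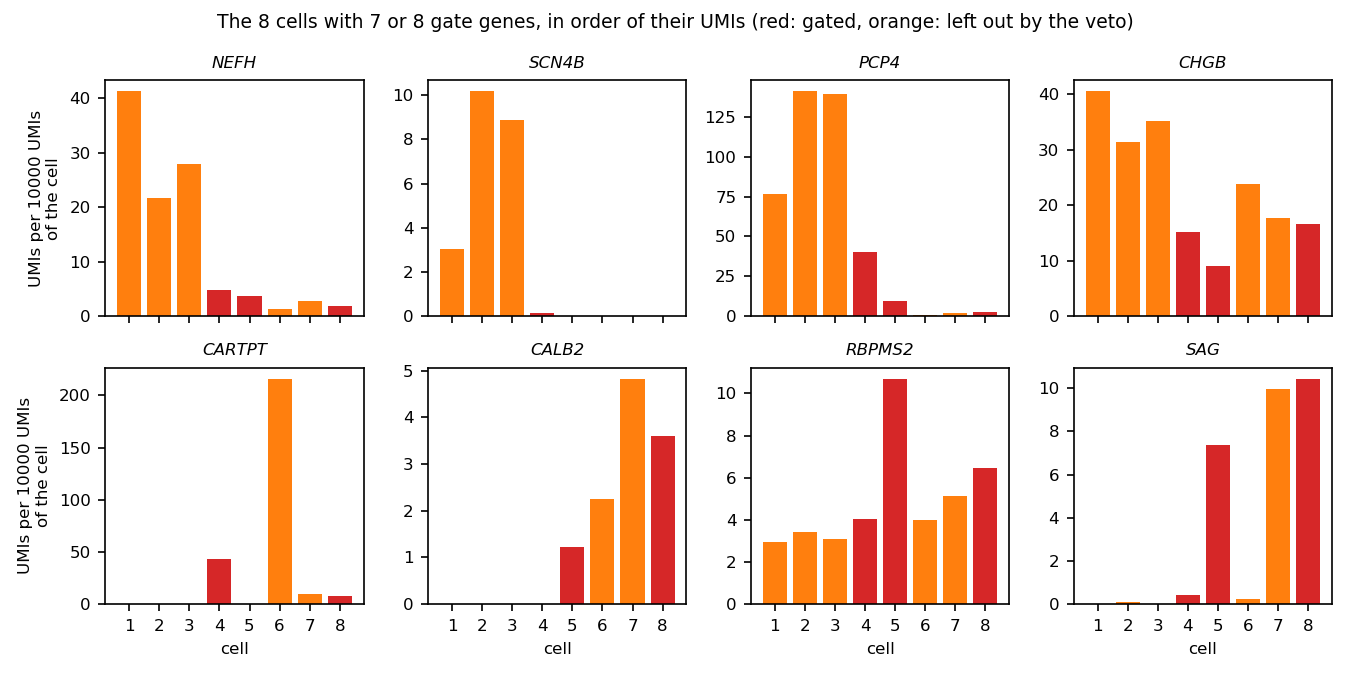
Each panel gives 1 gene and each bar 1 of the 8 cells of N350 with 7 or 8 gate genes, ordered by UMIs, in UMIs per 10000 UMIs of the cell, red for gated cells and orange for cells left out by the veto. NEFH and SCN4B are highest in cells 1 to 3, CARTPT in cells 4 and 6, and RBPMS2 lies between 2.96 and 10.7 in all 8.

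The 22 gated cells with amacrine markers entered through *NEFL* and *STMN2*, with a UMI in all 22, and through *THY1* in 18 and *NEFM* in 13. *NEFL* had 50 UMIs in all of them and *STMN2*, a stathmin of growing neurites, 270. None had a UMI of *SNCG*, *RBPMS*, *SLC17A6* or *RBPMS2*. Their amacrine genes stood at 27.3 UMIs per 10000, against 32.7 (31.9 to 33.5) in amacrine-gated cells and 0.0598 in the 5 cells with 6 or 7 gate genes. The 22 cells and the amacrine-gated cells were chosen in part by genes of this list (*SLC32A1*, *TFAP2A*, *TFAP2B* and *C1QL2*). These levels are therefore a description and support nothing. Their held-out level was 26.0 (23.6 to 28.7), of which *UCHL1* gave 211 of 409 UMIs, against 31.0 in amacrine-gated cells. *GAD1* and *GAD2* were at 0 in them by the rule, while *SLC32A1* had 82 UMIs over 18 of the 22 cells. Some carried peptide genes. *AVP* had its 242 UMIs in 10 of the 22 cells, of 1001 UMIs in 141 cells of the library. *VIP*, vasoactive intestinal peptide, had 302 of its 303 library UMIs in 1 gated cell, and *TAC1*, the tachykinin precursor, had 112 of 122 UMIs of gated cells in 1 cell. *SCG2*, a granin, had 551 UMIs over 20 of these cells.

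The 3 vessel-marker cells entered through *RBPMS*, *SNCG* and *THY1* alone. They had 45679, 26510 and 14627 UMIs, with 11, 6 and 5 UMIs of *RBPMS* and 1 of *SNCG* each, and none of *NEFL*, *NEFM* or *STMN2*. All 7 vessel genes had UMIs in them, at 96.5 UMIs per 10000 (90.1 to 103), with 305 of *CLDN5*, a tight junction protein of endothelium, and 348 of *RGS5*, a pericyte gene. Their held-out level was 3.80 (2.62 to 5.34), below the 9.06 of all other cells, and 21 of its 33 UMIs were *EBF1*. These cells also set several genes that looked high in the gated cells as a whole: 267 of 299 UMIs of *KLF2*, a transcription factor of endothelium, and 133 of 160 of *MGLL*, a lipase, were theirs.

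The 18 other gated cells were shallow, with a median of 1732 UMIs and 11.5% mitochondrial UMIs, against 6547 and 5.44% in the 22 with amacrine markers. *NEFL* had a UMI in all 18, *NEFM* and *STMN2* in 15 each and *SNCG* in 11, and none had *RBPMS* or *SLC17A6*. Against 0.0702 in all other cells and 0 UMIs in amacrine-gated cells, *RBPMS2* had 7 UMIs in these 18 cells, a level of 1.38. Rod genes stood at 134 UMIs per 10000 (124 to 144) in them, against 17.3 in the 5 cells with 6 or 7 gate genes and 200 (199 to 201) in all other cells of the library. Müller glia genes were at 71.7 (64.5 to 79.5), with 178 of 363 UMIs from *VIM*, and single cells ranged from 0 to 312 with a median of 6.0. Their held-out level was 21.7 (17.9 to 26.2), and single cells ranged from 0 to 101. Of these 18 cells, 1 was among the 4% of the library with the highest Scrublet doublet scores, and the part of free RNA in these counts was not tested. A cell of 3598 UMIs, 34.8% of them mitochondrial, had 38 UMIs of *NEFL*, 20 of *NEFM*, 5 of *SNCG* and 4 of *NEFH*.

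**Figure D4:**
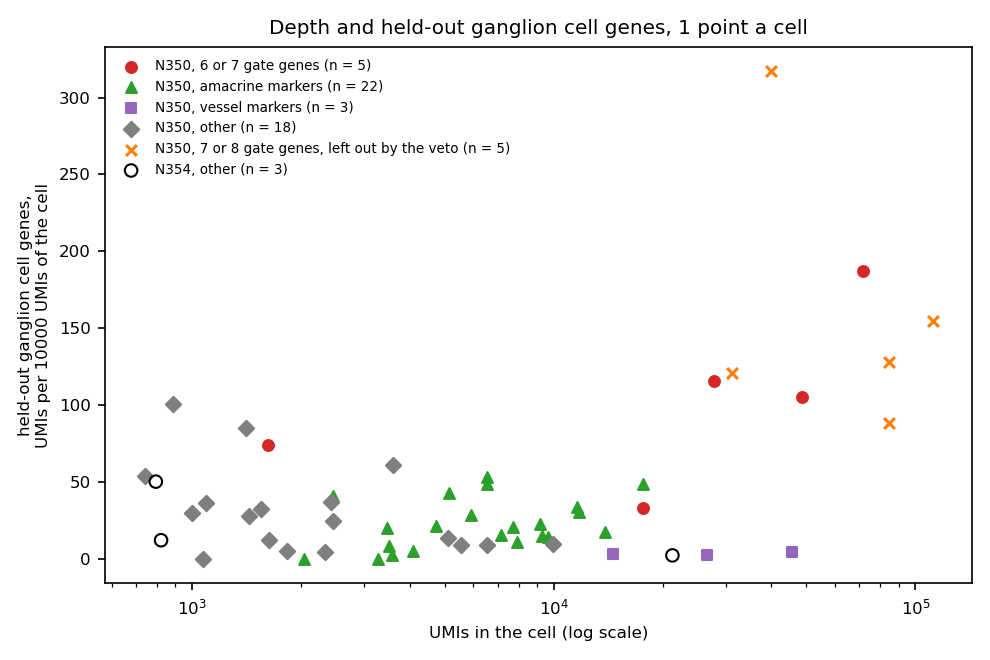
Each point is 1 cell, placed by its UMIs (horizontal, log scale) and by its held-out ganglion cell UMIs per 10000 (vertical), for the gated cells of N350 by kind, the 5 cells left out by the veto and the 3 gated cells of N354. The cells with 7 or 8 gate genes lie at or above 88.7 and have 27807 UMIs or more, and the vessel-marker cells at or below 4.60.

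Single held-out genes in N350 followed this division in part. *RBPMS2* had 111 UMIs in the gated cells (2.40 per 10000), 102 of them in the 5 cells with 6 or 7 gate genes, against 0.0702 in all other cells, a ratio of 34.2 (26.7 to 43.8) that was 126 as a mean over cells. Against amacrine-gated cells it was at least 161-fold higher, with 3 counts allowed in place of their 0, and the exact lower limit of the ratio was 129. *NEFH*, with 67 of 84 UMIs in the 5 cells, stood at 1.82 against 0.0846 in amacrine-gated cells (21.5-fold, 12.7 to 38.6) and against 0.503 in all other cells (3.62-fold, 2.86 to 4.52). Of its 1182 UMIs in all other cells, 893 lay in the 5 cells left out by the veto. As a mean over cells its ratio to all other cells was 62.5. Against horizontal-gated cells *NEFH* was lower, at 1.82 against 5.09 (ratio 0.357, 0.281 to 0.448), but 1.34-fold higher as a mean over cells. Of the 17 held-out genes, 9 lay above 1 against horizontal-gated cells, 6 included 1 and 2, *NEFH* and *INA*, lay below. Here too the share of all genes was not counted. *TUBB3*, a neuronal tubulin with 487 of 609 UMIs in the 5 cells, stood at 13.2 against 1.19 in all other cells, a ratio of 11.1 (10.1 to 12.1), and against 4.55 in amacrine-gated cells, a ratio of 2.90 (2.61 to 3.21). *ELAVL4*, a neuronal RNA-binding protein, was at 1.34 in the gated and 1.41 in amacrine-gated cells, a ratio of 0.953 (0.712 to 1.26). *NRN1*, which codes for neuritin, had 17 UMIs, 14 of them in 1 cell, and *GAP43*, a growth cone protein, had 12 in 7 cells. *ISL1* had 3 UMIs, a level of 0.0649 against 0.299 in all other cells, where bipolar cells also use it.

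*CARTPT*, among the markers given for this cell type, lay in few of the gated cells. It had 332 UMIs in 3 of the 48 cells, 306 of them in 1. Its level was 7.19 in the gated cells against 1.28 in all other cells, a ratio of 5.61 with an interval above 1. Without the 3 cells of 7 gate genes this ratio was 0.0995. Amacrine-gated cells held 1819 UMIs in 68 cells, a level of 9.05 against 7.19 in the gated cells (ratio 0.794, 0.704 to 0.893). The ratio to amacrine-gated cells turned above 1 with at least 4 or 5 gate genes, as given below. Of the library's 3342 UMIs, 1220 lay in 4 of the 8 cells with 7 or 8 gate genes.

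**Figure D5:**
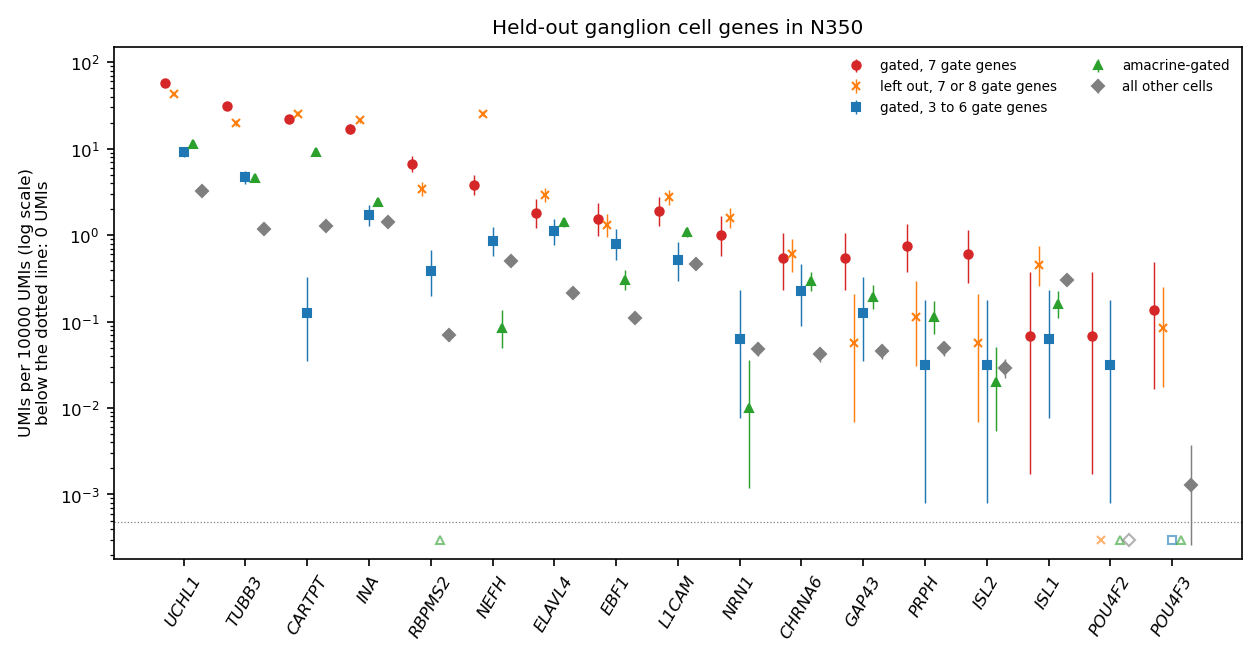
For each held-out gene (horizontal), the vertical log axis gives UMIs per 10000 with exact Poisson 95% intervals in 5 groups of cells of N350, and open or faint marks under the dotted line stand for 0 UMIs. The 3 gated cells with 7 gate genes and the 5 left out lie above amacrine-gated cells for UCHL1, TUBB3, INA, RBPMS2 and NEFH, while the 45 gated cells with 3 to 6 gate genes stand at 9.11, 4.65 and 1.11 for UCHL1, TUBB3 and ELAVL4, against 11.3, 4.55 and 1.41 in amacrine-gated cells.

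Across all genes, N350 alone was described, because N354 had too few gated cells to sum. Among 10303 genes with at least 200 UMIs in the library and outside the rule, 237 (2.30%) were 4-fold or more higher in the gated cells than in all other cells and 770 (7.47%) were 4-fold or more lower, with a median ratio of 0.935. A gene with 0 UMIs in the gated cells counts as lower here, and with 3 counts allowed in place of each 0 the 770 became 637 (6.18%). Against amacrine-gated cells, 230 of 10299 (2.23%) were 4-fold or more higher and 375 (3.64%) lower, with a median of 0.870, and the 375 became 226 (2.19%) with 3 counts in place of each 0. Without the 3 vessel-marker cells, the 230 became 75, of which 61 were shared. Of the held-out genes, 10 of 17 reached 200 UMIs: against all other cells 7 of them were past 4-fold higher (*CARTPT*, *EBF1*, *ELAVL4*, *INA*, *RBPMS2*, *TUBB3* and *UCHL1*) and *ISL1* was past 4-fold lower, with a median ratio of 5.95, and against amacrine-gated cells 2 were higher (*NEFH* and *RBPMS2*), with a median of 2.44. These shares describe 1 library, and a share above that of all genes has no test.

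The genes furthest above all other cells, among those in at least 10 gated cells, drew on each kind of cell. After *RBPMS2* came *EGR4*, an immediate early gene, at 1.43 against 0.0638 UMIs per 10000 (22.4-fold, 16.5 to 30.1), with 65 of its 66 UMIs in cells with amacrine markers. *AVP* (16.2-fold, 14.0 to 18.8) lay in those cells alone. *VSNL1*, a neuronal calcium sensor, was at 9.72 against 0.708 (13.7-fold, 12.3 to 15.2), with 229 UMIs in the 5 cells with 6 or 7 gate genes and 205 in those with amacrine markers. *FGF12* was at 3.12 against 0.234 (13.3-fold, 11.0 to 16.0), with 126 of 144 UMIs in the 5 cells. *TMSB10*, an actin-binding thymosin, was at 24.8 against 2.13 (11.7-fold, 10.9 to 12.4) in 44 of the 48 cells, with 808 of 1145 UMIs in the 5 cells. *LGALS1* was at 4.87 against 0.419 (11.6-fold, 10.0 to 13.4), with 184 of 225 UMIs in the 5 cells.

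Among the 10 genes lowest against all other cells, of those whose level there would give at least 20 UMIs at the depth of the gated cells, several were of photoreceptors. *GNAT2*, the transducin of cones, had 0 UMIs in the gated cells against a level of 1.49 in all other cells, at least 23.0-fold lower with 3 counts allowed. *OPN1SW*, a cone opsin, had 0 against 0.955, at least 14.7-fold lower, and *ARR3*, the arrestin of cones, was at 0.0649 against 4.24. The 10 also held *KCNJ10*, a potassium channel of glia, and *SHISAL2B*, with 0 UMIs in the gated cells and at least 8.98-fold and 8.66-fold lower. All 11 rod genes tested were past 4-fold lower than in all other cells, and of 7 cone genes 6 were with 3 counts in place of each 0 (6.18% of all genes); *OPN1LW*, at 0, could not be placed past 4-fold. Against amacrine-gated cells none of the rod and 3 of the cone genes were past 4-fold lower on the same count (2.19% of all genes). The rod genes still gave 1157 UMIs in 46 of the 48 cells, a level with an interval of 23.6 to 26.5 UMIs per 10000, against 30.9 in amacrine-gated cells, but as a mean over cells they stood higher in the gated cells, at 73.3 against 56.6.

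Against amacrine-gated cells, the genes in at least 10 gated cells that stood highest after *RBPMS2* were *LGALS1* (57.6-fold, 35.2 to 101), *KLF2* (44.9-fold, 30.6 to 68.1) and *HSF4*, a heat shock factor, at 0.931 against 0.0348 (26.7-fold, 11.9 to 70.4), with 36 of 43 UMIs in the 5 cells with 6 or 7 gate genes. *NEFH* came next. *KCNIP2*, a potassium channel interacting protein, was at 1.19 against 0.104 (11.4-fold, 6.78 to 19.8), with 46 of 55 UMIs in the 5 cells. *DLC1*, *ZBTB16*, *CALD1*, *SLC2A1* and *SPARCL1* were also 6.61-fold to 10.8-fold higher, with most UMIs of each in the 3 vessel-marker cells, and *CALD1* and *SLC2A1* fell to ratios of 0.634 and 0.814 without them. With at least 4 or 5 gate genes the ratios of *CALD1* and *SPARCL1* also turned below 1. Among the 10 lowest, of genes whose level in amacrine-gated cells would give at least 20 UMIs at the depth of the gated cells, were *GLRA3*, a glycine receptor subunit, at 0.0216 against 0.582, *NPY* at 0.0649 against 1.53, *TH*, the rate-limiting enzyme of dopamine synthesis, at 0.173 against 1.93, *LAMP5* at 0.195 against 4.33, and *CALB1*, calbindin, at 0.281 against 1.99. The rest of the 10 were *ALDH1A1*, *VSTM2B*, *MAGI3*, *SERTM1* and *SSTR2*. *GAD1* and *GAD2*, which the rule kept out, were not compared.

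Genes of axon structure and spiking were higher in the gated cells than in all other cells but close to amacrine-gated cells. Of 17 tested genes of axonal cytoskeleton and transport, 4 were 4-fold or more higher than in all other cells (*KIF5A*, *MAP1A*, *TUBB2A* and *TUBB4A*), where 2.30% of all genes were, and none lower, with a median ratio of 2.37. Against amacrine-gated cells 1 was higher (*DPYSL3*), where 2.23% of all genes were, with a median of 1.03. *TUBB2A*, a tubulin, stood at 15.1 against 2.87 in all other cells, with 358 of 698 UMIs in the 5 cells with 6 or 7 gate genes, and *KIF5A*, an axonal kinesin, at 2.03 against 0.443, with 66 of 94. This list summed to 147 UMIs per 10000 (143 to 150) in the 8 cells with 7 or 8 gate genes, 102 (97.0 to 107) in those with amacrine markers and 76.1 (74.9 to 77.3) in amacrine-gated cells. Horizontal-gated cells stood at 137, above the 87.1 of the gated cells (ratio 0.635, 0.614 to 0.657).

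Of 15 tested channel genes of spiking, 5 were 4-fold or more higher than in all other cells (*KCNAB2*, *KCNC2*, *SCN1A*, *SCN2A* and *SCN2B*; 2.30% of all genes), with a median of 2.97, and 1 than in amacrine-gated cells (*SCN4B*, 6 UMIs; 2.23% of all genes), with a median of 1.12. *KCNC2*, a potassium channel of fast spiking, stood at 1.28 against 0.197 in all other cells (6.47-fold, 4.85 to 8.50) with 27 of 59 UMIs in the 5 cells, and *SCN2A*, a sodium channel of axons, at 0.758 against 0.141 (5.37-fold, 3.67 to 7.62) with 27 of 35. The list summed to 17.7 (16.5 to 18.9) in the 8 cells, 8.27 (7.46 to 9.14) in the gated cells and 8.09 (7.70 to 8.49) in amacrine-gated cells.

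Of 14 genes of vesicle release tested, *CPLX1* and *CPLX2*, complexins, were 4-fold or more higher than in all other cells (2.30% of all genes), with a median of 2.27, and none differed as much from amacrine-gated cells. Of 11 transmitter receptor genes none was past 4-fold against all other cells, and *GRIN2A* was lower than in amacrine-gated cells (3.64% of all genes). Of 14 peptide and granin genes, 5 were higher than in all other cells (*CHGB*, *PCSK1*, *SCG2*, *TAC1* and *VIP*), where 2.30% of all genes were, and *CCK* was lower (7.47% of all genes), with a median of 2.29. *VIP* and *TAC1* each rested on 1 cell, as given above. Against amacrine-gated cells *VIP* was higher and *CRH* and *NPY* lower (2.23% and 3.64% of all genes), with a median of 0.787. *CHGB* stood at 5.58 against 0.825, with 217 of 258 UMIs in the 5 cells with 6 or 7 gate genes, whereas 551 of 635 UMIs of *SCG2* lay in the cells with amacrine markers. Of 7 genes of neurotrophin and injury response, *HSPB1*, a small heat shock protein, was higher than in all other cells (2.30% of all genes), at 9.61 against 1.95 (4.92-fold, 4.45 to 5.42), with 234 of 444 UMIs in the 5 cells. Of 11 optic nerve disease genes none was past 4-fold, with medians of 1.12 against all other cells and 0.827 against amacrine-gated cells. Of 5 ganglion cell subtype genes tested none was past 4-fold against all other cells, and *PVALB* held 575 of the 717 UMIs of that list. *SNCB*, another synuclein, stood at 17.0, above all other cells (2.49-fold, 2.32 to 2.68) and below amacrine-gated cells (ratio 0.712, 0.659 to 0.767), while *SNCG* had 1 UMI in the 341 amacrine-gated cells. *SPATA7*, which codes for a protein of the photoreceptor connecting cilium, stood at 0.584 (27 UMIs) against 0.418 in all other cells, a ratio of 1.40 (0.916 to 2.04) that was 0.886 as a mean over cells, and *PTPN21*, a protein tyrosine phosphatase, at 0.173 (8 UMIs) against 0.446, a ratio of 0.389 (0.167 to 0.769).

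Markers of other cell types in the gated cells of N350 were read as whole lists. The amacrine list of 9 genes stood at 9.55 in the gated and 4.70 in all other cells, with 2 genes at 0. The vessel list stood at 18.3 against 1.49, with 838 of its 847 UMIs in 3 cells. The astrocyte list was at 2.92 against 1.14, with *SERPINE2* the most abundant, and 93 of its 135 UMIs lay in the 3 vessel-marker cells. Müller glia, cone, bipolar, horizontal and microglia lists were at 42.3, 0.584, 0.693, 1.69 and 0.0649, against 145, 31.5, 5.77, 8.45 and 0.356. The oligodendrocyte list had 1 UMI in the gated cells and the red blood cell list 0. The part of these cells in the ratios was not tested beyond the values given without them.

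Clusters made from genes outside the rule did not give the gated cells a cluster of their own. In N350, 24 of 48 (exact binomial 95% interval 35.2% to 64.8%) fell into 1 cluster of 228 cells led by *CARTPT*, *C1QL2* and *SYNPR*, among them 20 of the 22 with amacrine markers and the 3 with 7 gate genes. The 5 cells left out by the veto lay in it too. Gated cells were 10.5% of this cluster, against 0.540% of all cells of N350. The 3 vessel-marker cells lay in a cluster of 38 cells led by *APOA1*, *IGFBP7* and *CLDN5*. Of the rest, 8 lay in a cluster of 1309 cells with a median of 751 UMIs and 6 in the cluster of rod genes. In N354, 2 of the 3 gated cells lay in a cluster led by *SYNPR* and *ATP1B1*.

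The 3 gated cells of N354 gave little of a ganglion cell. They had 21299, 822 and 795 UMIs, of which 92.1%, 12.8% and 23.6% were mitochondrial. The first had 1 UMI of *NEFL*, 2 of *NEFM*, 3 of *STMN2*, 6 of *SNCG* and 1 of *THY1*, and the others 1 UMI each of *NEFL*, *NEFM* and *STMN2*. Held-out genes gave 5, 1 and 4 UMIs, most of them *UCHL1*. No cell of N354 had more than 5 gate genes. *SLC17A6* had no UMI in its 4387 cells, which allows a share of up to 0.0684% of cells with a UMI but does not limit the cells that express it at a median of 1204 UMIs per cell, against 10 cells with a UMI in N350, and *SNCG* had 11 UMIs in 6 cells against 1076 in 52. Fewer ganglion cells in the punch and fewer of them captured or counted cannot be told apart here, and the different gene lists of the dogs cannot be told apart from the animals.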

How the data were processed

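Single-cell RNA libraries of the 3' v3.1 droplet kit came from the neuroretina of 2 dogs, N350 and N354. The authors aligned and counted reads with Cell Ranger (6.0.2 in the file headers) and deposited raw UMI counts per gene and cell, without normalization. The study's methods name the build canFam6, but the dogs' gene lists differ (34981 and 19947 genes), and whether both were counted on 1 annotation is not given in the sources used here. Genes of the same name were summed within a dog. The gated cells and gene lists were chosen with earlier results of these data known.

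Cells needed 200 genes, with no mitochondrial limit. A level is the UMIs of a gene or list summed over cells, per 10000 UMIs, with exact Poisson 95% intervals. Ratios have exact conditional intervals, shares Clopper-Pearson intervals, and a count of 0 was read as allowing 3 counts. Thinned shares are hypergeometric expectations at 1000 UMIs. All cover counting error only. Amplified copies are counted once through the UMI. Computations used Python 3.11.15, numpy 2.4.6, scipy 1.17.1, pandas 2.3.3 and scanpy 1.11.5.

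A pooled count test between classes had been planned for classes with 20 or more cells in both dogs. It was not run, because N354 had 3 gated cells, so no p-value is given. In its place, genes with 200 or more UMIs in N350 were read as 4-fold or more apart, and those named are the 15 highest (with UMIs in at least 10 gated cells) or 10 lowest (of genes whose comparison level would give at least 20 UMIs in the gated cells), plus all held-out genes and the leading genes of each list. That rule, the kinds of gated cells and the 8 cells described singly were chosen after the values were seen. The ratio and interval computation was tested on simulated data. Scrublet called 0 and 4 doublets, under 0.5% of cells, so its threshold was not used, doublets were kept, and leaving out the 4% with the highest scores was an alternative. It removed 1 of the 48 gated cells of N350, none of the 3 of N354 and none of the 5 cells left out by the veto, with held-out ratios of 6.57 and 1.39. Clusters (scanpy, 3000 variable genes without the 15 rule genes, 30 components, resolution 0.5) were made per dog. Names that begin with MT- number 1 in N350, a metallothionein, and 12 in N354, so a limit on them acts in N354 only. Coordinates and sequences are not used here, because the reference table is of another assembly than the counts. The libraries were not merged, since the genes listed differ. Some items are not reported here.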

Additional observations from a re-analysis of the deposited data

How the results depend on the processing

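The counts of gated cells and the held-out ratio moved with the rule, while the ratio in N350 to all other cells stayed above 1 under every alternative run, but not every ratio to amacrine-gated or horizontal-gated cells did. With at least 2, 4 or 5 gate genes N350 had 109, 24 or 9 gated cells (held-out ratio 4.89, 10.4 or 14.3) and N354 had 9, 1 or 1 (ratio 2.85 at 2 genes). With 2 or more UMIs per gate gene the numbers were 23 (ratio 10.4) and 1, and with no veto 138 (10.5) and 25 (7.77). N354 had 0 gated cells under either mitochondrial limit, so that no ratio was had there, and 1 among cells of 1000 or more UMIs. In N350 the ratio was 7.12 with at most 10% mitochondrial UMIs, 6.25 in cells of 1000 or more UMIs, 6.25 without *UCHL1*, 2.82 as thinned shares, 7.47 as a mean over cells, 1.95 against amacrine-gated and 1.42 against horizontal-gated cells. In N354 it was 0.595 without *UCHL1*, 8.63 as a mean over cells, 0.254 against amacrine-gated and 0.344 against horizontal-gated cells. Further alternatives were chosen after seeing the data: in N350 the ratio was 2.19 without the cells of 7 gate genes (0.640 against amacrine-gated and 0.466 against horizontal-gated cells). Against amacrine-gated and horizontal-gated cells it was 0.956 and 0.933 as thinned shares (0.309 and 0.299 in N354) and 1.30 and 1.37 as a mean over cells. Against horizontal-gated cells without those of 7 or 8 gate genes it was 2.55, and 0.838 with the gated cells of 7 gate genes also left out. Against all other cells it was 8.12 without the vessel-marker cells, and 14.1 with the 5 cells that the veto left out.

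The counts of genes 4-fold or more apart in N350, and their alternatives, were also chosen after seeing the data. At least 4 or 5 gate genes gave 1310 and 2042 genes lower than in all other cells, against 770, and against amacrine-gated cells 82 and 144 higher and 883 and 1802 lower, against 230 and 375. With 3 counts in place of each 0, 226 were lower than in amacrine-gated cells and 637 than in all other cells. Without the vessel-marker cells 75 were higher than in amacrine-gated cells, and at exactly 3 gate genes the held-out level rose from 15.2 to 23.9 and the amacrine level from 11.5 to 20.3. Limited to genes of 1000 or more UMIs, 54 were higher and 294 lower than in all other cells, and 46 higher and 43 lower than in amacrine-gated cells. Without the cells of 7 gate genes the ratio to all other cells turned to 0.0995 for *CARTPT* and 0.651 for *PRPH*, and the ratio to amacrine-gated cells to 0.711 for *INA*, 0.278 for *PRPH* and 0.805 for *UCHL1*. *POU4F3* then had 0 UMIs, which does not place its ratio above or below 1. Without the vessel-marker cells *CALD1* turned to 0.634 and *SLC2A1* to 0.814 against amacrine-gated cells. At 4 or 5 gate genes, against amacrine-gated cells, *CALD1* was at 0.622 and 0.795, *SPARCL1* at 0.829 and 0.910, and *CARTPT* at 1.44 and 2.23, and at 5, against all other cells, *AVP* was at 0 and *EGR4* at 0.633. As a mean over cells *ISL1* was at 1.19 against all other cells and *PRPH* at 0.598 against amacrine-gated cells. The cause was not tested for any of these. Of the other values of single genes, 265 moved by less than their counting interval and 173 by more. Among them, 12 values of 5 genes crossed 1 against amacrine-gated cells, each where the reported interval included 1.

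The cluster with most gated cells held 23 or 24 of the 48 in N350 over the alternatives and 2 of 3 in N354. No paired analysis was possible because N354 had 3 gated cells, and the pooled count tests planned for the contrasts with all remaining, amacrine-gated and horizontal-gated cells, with their other normalizations, filters and blocks, were not run. Depth limits genes of few UMIs: in N350 a count of 0 in the gated cells allows 0.0649 UMIs per 10000, in N354 1.31.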

Other observations

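Some peptide genes lay in very few cells of the neuroretina. *VIP* had 302 of 303 UMIs of N350 in 1 gated cell with amacrine markers, and all 69 UMIs of N354 in 1 cell that was not gated. *SST*, the somatostatin gene, had 97 of 98 UMIs of N350 in 1 of the 8 cells with 7 or 8 gate genes, and 10 UMIs over 7 cells in N354. *AVP* was wider, with 602 of 1001 UMIs of N350 in 59 amacrine-gated cells and 84 of 104 UMIs of N354 in 8. *ADCYAP1*, which codes for the peptide PACAP and is known from light-sensitive ganglion cells, had 48 of 61 UMIs of N350 in the 8 cells, with a UMI in each.

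*OPN4*, the melanopsin gene, lay mainly in amacrine-gated cells. Of its 108 UMIs in N350, 83 lay in 33 amacrine-gated cells, 11 in 2 gated cells with amacrine markers (0.238 UMIs per 10000 over the gated cells, against 0.0412 in all other cells) and 0 in the 8 cells with 7 or 8 gate genes, and N354 had 4 UMIs in 4 cells. *PVALB*, parvalbumin, had 1500 UMIs in the 8 cells, with a UMI in each, of 14236 UMIs in 1002 cells of N350.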
